A study of Rattus norvegicus with 6 samples.

Results

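Genes of adrenergic receptor and cyclic AMP signalling were examined in cultured rat ventricular myocytes, which are the heart muscle cells of newborn pups. The list named 9 genes and was matched by symbol, 1 row per Ensembl gene identifier. Of these, 7 of the 21648 genes in the count table matched: the receptor genes Adrb1 and Adra1a, the G protein gene Gnb3, the adenylyl cyclase gene Adcy5, the phosphodiesterase genes Pde3a and Pde4d and the anchoring protein gene Akap5. Adra1b and Adcy6 were not analysed here. The list was chosen by pathway role, with earlier results of these data known. Gnb3 and Akap5 were instead selected on their large measured fold changes in the comparison reported below. The values of Gnb3 and Akap5 are therefore a description and carry no test.

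2 groups of 3 libraries were compared, all from wild-type cells. One had received 10 µM of compound 915 for 72 h, and the other an equal volume of the solvent DMSO for 72 h. The submitters name 915 as activating the estrogen-related receptors, nuclear receptors abbreviated ERR, and a further agonist that they name was not analysed here. Both groups were cultured alike: pups of postnatal day 3, a step of 90 min on plastic that removes attaching fibroblasts, plating with 100 µM bromodeoxyuridine, and a change after 2 days to medium with insulin, transferrin and selenium. The labels call the libraries biological replicates without saying whether each came from a separate isolation, so a p-value here reflects only how these libraries vary, and that variation may be technical.

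Noradrenaline and adrenaline act on the heart through adrenergic receptors. Beta receptors couple to the stimulatory G protein, which turns on adenylyl cyclase. The cyclic AMP that is made activates protein kinase A, which phosphorylates calcium handling and contractile proteins and so raises the force and rate of the beat. Phosphodiesterases break cyclic AMP down, and A-kinase anchoring proteins hold the kinase near its substrates. Alpha-1 receptors instead couple to Gq and phospholipase C and are known in neonatal myocytes as drivers of hypertrophic growth.

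The count table held 35796489, 30639244 and 38078137 counts for 915 libraries 1 to 3 and 40010826, 38707933 and 36799845 for DMSO libraries 1 to 3. Levels are given in the deposited CPM, which scale each count to the size of its library, as mean ± SD over 3 libraries. A gene with 0 counts could have a true level of up to 3 counts, or 0.0698 to 0.0917 CPM. Cardiomyocyte markers were present, with a summed level of 17016 to 17122 CPM with 915 and 12032 to 12789 CPM with DMSO. Of 7 entries 6 matched the table, and these 6 were called higher with 915. By the same test, described below, 24.3% of all 14253 tested genes were called higher and 25.5% lower. Markers of other cells were present as well, and none of the other lists had a measured member at 0 in every library. Of the entries, 5 of 7 smooth muscle and pericyte, 5 of 6 endothelial and 5 of 6 neuron and Schwann cell markers matched the table. Fibroblast markers summed to 10984 to 11638 CPM with 915 and 20862 to 21731 CPM with DMSO, with 2 of 7 higher and 4 lower. Most of this sum was Col1a1 (6289 ± 276 CPM with 915, 11988 ± 312 CPM with DMSO) and Col3a1 (2826 ± 90.8 and 7067 ± 160 CPM). The higher genes were Dcn and Pdgfra, and Postn did not pass. Smooth muscle and pericyte markers summed to 601 to 647 CPM with 915 and 1527 to 1667 CPM with DMSO, with 3 of 5 lower and none higher. Tagln made up most of this sum, at 362 ± 16.6 CPM with 915 and 1209 ± 67.4 CPM with DMSO. Endothelial markers summed to 47.2 to 48.1 CPM against 60 to 64.3 CPM with DMSO, with 4 of 5 lower and 1 higher, and macrophage markers to 106 to 128 CPM against 209 to 225 CPM with DMSO, with 4 of 6 lower and none higher. Markers of sympathetic neurons and Schwann cells were low, at a sum of 11.5 to 14.5 CPM with 915 and 11.6 to 12.8 CPM with DMSO, with 1 of 4 tested higher and 2 lower (1 lower without 915 library 1 or 3 or DMSO library 1 or 3). In bulk RNA, fewer cells of a type and less of a transcript per cell cannot be told apart, and the part of these markers in the results below was not tested.

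**Figure D1:**
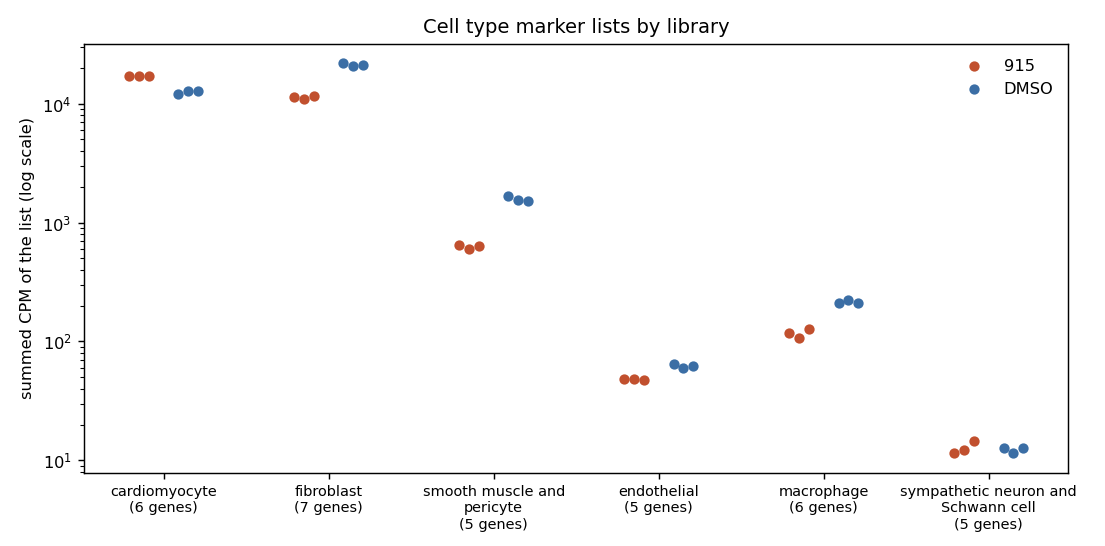
Summed CPM (log scale) of each cell type marker list in each library, 915 left and DMSO right within a list, with the number of genes in brackets. The cardiomyocyte sum sits higher with 915, and the fibroblast, smooth muscle, endothelial and macrophage sums sit lower. Col1a1 and Col3a1 make up most of the fibroblast sum, and Tagln most of the smooth muscle sum.

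Among the 7 genes, Gnb3 was higher and Akap5 lower with 915 by wide margins, Adcy5, Pde4d and Adra1a rose by 1.2-fold to 1.37-fold, and Adrb1 and Pde3a did not pass the test. All 7 passed the filter on low counts. Fold changes and p-values came from edgeR's quasi-likelihood test over all genes, with Benjamini-Hochberg adjustment and a threshold of 0.05. Of the 5 genes not chosen for their change 3 were higher and 0 lower. Over the whole table, 24.3% of 14253 tested genes were called higher and 25.5% lower, 49.8% in all, so a call is no rare event in this comparison. A change of at least 2-fold, which Gnb3 and Akap5 both show, was found in 9.23% of the tested genes. The CPM values of the groups did not overlap for 2 of the 5 genes, against 56.7% of all genes tested.

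**Figure D2:**
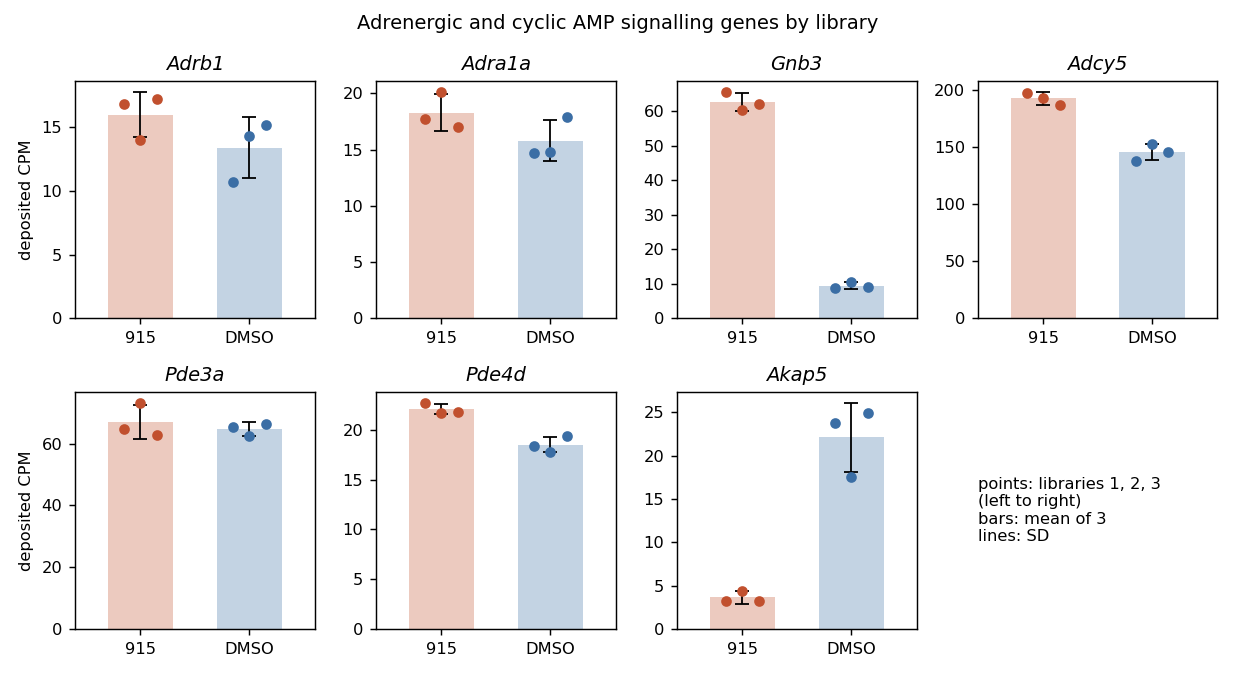
Deposited CPM (linear axis from 0) of the 7 genes, 915 left and DMSO right; points are libraries 1 to 3, bars the mean and lines the SD of 3 libraries. Gnb3, Adcy5 and Pde4d lie above and Akap5 below DMSO with no overlap, while Adrb1, Adra1a and Pde3a overlap between groups.

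Promoter sequence is shown for Akap5, Adrb1 and Adcy5, because one had the largest decrease of the list, another is the main cardiac beta receptor and the third a principal cardiac cyclase. RefSeq gives the 250 bases before each gene's start on build GRCr8, a later assembly than the one used for counting: Akap5 at chr6:100786919-100787168 on the plus strand, Adrb1 at chr1:265776853-265777102 on the plus strand and Adcy5 at chr11:79123344-79123593 on the minus strand. Each is written 5′ to 3′ in the direction of transcription, and capitals mark the short cyclic AMP motif TGACG.
Akap5: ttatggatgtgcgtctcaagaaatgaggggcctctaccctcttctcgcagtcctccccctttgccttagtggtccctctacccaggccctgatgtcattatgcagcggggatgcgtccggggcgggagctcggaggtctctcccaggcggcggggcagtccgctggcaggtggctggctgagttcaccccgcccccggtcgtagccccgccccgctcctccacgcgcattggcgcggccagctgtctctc
Adrb1: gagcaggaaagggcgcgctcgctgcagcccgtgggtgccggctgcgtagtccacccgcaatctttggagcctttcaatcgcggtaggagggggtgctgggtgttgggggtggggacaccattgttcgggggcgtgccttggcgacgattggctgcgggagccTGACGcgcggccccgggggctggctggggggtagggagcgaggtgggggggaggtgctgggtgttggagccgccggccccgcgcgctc
Adcy5: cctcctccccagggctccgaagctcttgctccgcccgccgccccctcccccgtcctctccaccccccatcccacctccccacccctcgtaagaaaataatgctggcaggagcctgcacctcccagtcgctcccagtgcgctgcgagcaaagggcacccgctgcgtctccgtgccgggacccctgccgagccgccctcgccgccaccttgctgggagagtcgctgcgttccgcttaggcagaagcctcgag
All 3 windows are rich in G and C, at 66.8% for Akap5, 72% for Adrb1 and 70% for Adcy5. On both strands the ERR response element TCAAGGTCA, its shorter form AAGGTCA, which lies inside it, and the full cyclic AMP response element TGACGTCA were searched, and these letters are in none of the 3 windows. Among 33469 such windows of the genome 0.388% hold TCAAGGTCA, 3.99% AAGGTCA and 1.59% TGACGTCA. The short motif TGACG, also part of TGACGTCA, is found 1 time in Adrb1 and in 18.2% of all windows.

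Adrb1 (ENSRNOG00000017002) encodes the beta-1 receptor, the main beta receptor of heart muscle. It had 16.8, 14.0 and 17.2 CPM in 915 libraries 1 to 3, against 10.7, 14.3 and 15.2 CPM in DMSO libraries 1 to 3. The groups overlap, because 915 library 2 lies below DMSO libraries 2 and 3, and DMSO library 1 is the lowest of all. The means were 16.0 ± 1.75 CPM with 915 and 13.4 ± 2.4 CPM with DMSO (SD, n = 3 each), and the log2 fold change of 0.31 ± 0.125 (SE) missed the threshold (edgeR adjusted p = 0.0513). The call turned on single libraries: Adrb1 passed without 915 library 2 (0.40, edgeR adjusted p = 0.0207), without DMSO library 2 (0.37, 0.0255) and without DMSO library 3 (0.42, 0.0206), as it did with median-ratio size factors (0.0453). Without DMSO library 1 the log2 fold change was 0.17 (edgeR adjusted p = 0.234), and without 915 library 1 or 3 it was 0.28 or 0.26 (0.151 or 0.175).

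Adra1a (ENSRNOG00000009522) encodes the alpha-1A receptor. It had 17.7, 20.1 and 17.0 CPM in 915 libraries 1 to 3, against 14.7, 14.8 and 17.9 CPM in DMSO libraries 1 to 3. DMSO library 3 reaches into the 915 range, and the other DMSO libraries lie below all 915 libraries. Its log2 fold change of 0.26 ± 0.0967 (SE) passed narrowly (edgeR adjusted p = 0.0386). The call was lost without 915 library 1 (0.0631) or 2 (0.148), without DMSO library 1 (0.15) or 2 (0.0862) and with plain library totals in place of TMM, the trimmed-mean scaling used here (0.0984), all edgeR adjusted p-values.

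Among 4 other adrenergic receptor genes tested 2 were lower and 0 higher, 50% called against 49.8% of all genes. The median log2 fold change was −0.77 against −0.01 over all genes, with single genes from −2.71 to 0.21. The lower genes, named after their values were seen, had few counts: Adra2b, an alpha-2 receptor with 7 to 67 counts per library, had 0.223 ± 0.02 CPM with 915 and 1.53 ± 0.0782 CPM with DMSO, and Adrb3, the beta-3 receptor with 12 to 55 counts, had 0.44 ± 0.154 CPM with 915 and 1.18 ± 0.232 CPM with DMSO (edgeR adjusted p = 8.37e-06 and 3.96e-03). Adra1d, the third alpha-1 receptor, did not pass at 10.5 ± 0.932 CPM with 915 and 9.44 ± 0.884 CPM with DMSO (edgeR adjusted p = 0.128).

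Gnb3 (ENSRNOG00000015541) encodes a beta subunit of heterotrimeric G proteins, the part that with the gamma subunit carries the signal of the released beta-gamma dimer. It had 65.5, 60.4 and 62.0 CPM in 915 libraries 1 to 3, against 8.84, 10.6 and 9.03 CPM in DMSO libraries 1 to 3. All 915 libraries lie far above all DMSO libraries, and the spread within groups is small, with a coefficient of variation of 4.1% with 915 and 9.99% with DMSO. With means of 62.6 ± 2.57 and 9.48 ± 0.947 CPM the level was 6.83-fold higher with 915, a log2 fold change of 2.77. By this measure it was number 26 of 14253 tested genes among increases, which is why it was listed. In the later assembly no gene overlaps Gnb3, and neither neighbour was called higher. Cdca3, a cell division gene, fell 3.77-fold (6.32 ± 1.05 CPM with 915, 24.7 ± 0.814 CPM with DMSO, edgeR adjusted p = 3.58e-09), and P3h3 had 140 ± 4.19 and 155 ± 1.76 CPM (edgeR adjusted p = 0.106).

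No other beta subunit gene was called higher. Gnb1 fell 1.22-fold, to 166 ± 5.59 CPM with 915 against 209 ± 2.07 CPM with DMSO (edgeR adjusted p = 1.26e-04), and Gnb4, named after its values were seen, fell 1.59-fold (edgeR adjusted p = 3.23e-04). Gnb2 and Gnb5 did not pass (edgeR adjusted p = 0.431 and 0.372). Of 15 other G protein subunit genes tested, 7 were lower and 1 higher, 53.3% called against 49.8% of all genes. Their median log2 fold change was −0.14. The inhibitory subunit gene Gnai2 fell 1.30-fold (468 ± 19.8 CPM with 915, 627 ± 17.6 CPM with DMSO, edgeR adjusted p = 1.47e-05), and Gnaq, whose product couples alpha-1 receptors to phospholipase C, fell 1.39-fold (17.9 ± 1.55 and 25.6 ± 1.98 CPM, edgeR adjusted p = 2.94e-04). The stimulatory subunit gene Gnas did not pass, at 251 ± 11.5 CPM with 915 and 238 ± 4.82 CPM with DMSO (edgeR adjusted p = 0.0528). A further row with this symbol and fewer counts was called lower and is given under other observations. The single higher gene, the gamma subunit gene Gng5, lost its call without 915 library 1 or 3 or DMSO library 1 or 3, while the number of higher genes was 2 with median-ratio size factors and with DESeq2.

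Adcy5 (ENSRNOG00000002229) encodes adenylyl cyclase 5, one of the principal cyclases of cardiac myocytes, which converts ATP to cyclic AMP. It had 198, 193 and 187 CPM in 915 libraries 1 to 3, against 138, 153 and 146 CPM in DMSO libraries 1 to 3. The groups are well apart. Its level was 1.37-fold higher with 915 (193 ± 5.37 and 146 ± 7.19 CPM; log2 fold change 0.45 ± 0.0518 SE, edgeR adjusted p = 5.63e-06). Among 6 other cyclase genes tested, 0 rose and 3 fell, 50% called against 49.8% of all genes (median −0.19). Adcy3, Adcy7 and Adcy2 fell 1.4-fold, 1.26-fold and 1.34-fold, to 9.13 ± 1.18, 13.3 ± 0.776 and 5.06 ± 0.819 CPM with 915, against 13.3 ± 0.84, 17.4 ± 2.28 and 6.99 ± 0.351 CPM with DMSO (edgeR adjusted p = 1.42e-03, 0.0116 and 0.018). Without DMSO library 3 the number of lower cyclase genes was 1. Adcy7 also lost its call without DMSO library 1 and Adcy2 without 915 library 1.

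The phosphodiesterases of the list end the cyclic AMP signal. Pde3a (ENSRNOG00000025042) encodes the enzyme that cyclic GMP inhibits and that is the target of cardiotonic drugs such as milrinone. It had 64.9, 73.2 and 62.9 CPM in 915 libraries 1 to 3, against 65.4, 62.4 and 66.5 CPM in DMSO libraries 1 to 3. The groups overlap throughout, with 915 library 2 above the rest, and the log2 fold change of 0.10 ± 0.0621 (SE) did not pass (edgeR adjusted p = 0.214). Pde4d (ENSRNOG00000042536) encodes a cyclic AMP specific enzyme that is found with beta receptors and with the calcium release channel. It had 22.7, 21.7 and 21.8 CPM in 915 libraries 1 to 3, against 18.4, 17.8 and 19.4 CPM in DMSO libraries 1 to 3. Every 915 library lies above every DMSO library, and the mean was 1.23-fold higher (22.1 ± 0.54 and 18.5 ± 0.771 CPM; log2 fold change 0.30 ± 0.0708 SE, edgeR adjusted p = 2.67e-03). The counts are per gene, so the forms that start from the several promoters of Pde4d cannot be separated. The log2 ratio of Pde3a to Pde4d was 1.6 ± 0.136 with 915 and 1.81 ± 0.026 with DMSO (SD), a difference of −0.21 with an exact two-sided permutation p of 0.1 (n = 3 each), the smallest that 3 against 3 libraries allow.

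Of 11 other cyclic AMP phosphodiesterase genes tested, 4 were lower and 1 higher, 45.5% called against 49.8% of all genes. Their median was −0.36. Pde3b, the sister gene of Pde3a, fell 1.38-fold (16.0 ± 1.05 CPM with 915, 22.8 ± 1.72 CPM with DMSO, edgeR adjusted p = 2.90e-04), and the high-affinity enzyme gene Pde8a fell 1.29-fold (16.6 ± 0.171 and 22.1 ± 1.44 CPM, edgeR adjusted p = 8.72e-04). Pde7b rose 1.45-fold (11.2 ± 0.966 and 7.98 ± 0.565 CPM, edgeR adjusted p = 8.35e-04). Without DMSO library 2 or 3 the number of higher genes was 2. Pde4b, which forms a complex with cardiac calcium channels, was at 28.6 ± 1.24 CPM with 915 and 26.0 ± 2.37 CPM with DMSO and did not pass (edgeR adjusted p = 0.0624).

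Akap5 (ENSRNOG00000006410) encodes the anchoring protein AKAP150, known to gather protein kinase A, calcineurin and adenylyl cyclase at beta receptors and calcium channels. It had 3.27, 4.43 and 3.17 CPM in 915 libraries 1 to 3, against 23.8, 17.5 and 24.9 CPM in DMSO libraries 1 to 3, from 125 to 1022 counts per library. The lowest DMSO library, library 2, is still well above the highest 915 library, also library 2. The level was 5.92-fold lower with 915 (3.63 ± 0.701 and 22.1 ± 3.98 CPM), a log2 fold change of −2.57, and number 56 among the decreases of 14253 genes. Its spread within groups was the widest of the 7 genes, with a coefficient of variation of 19.3% with 915 and 18% with DMSO. The neighbours in the later assembly, Mthfd1 and Zbtb25, did not pass, at 46.4 ± 2.12 and 9.3 ± 1.74 CPM with 915 and 47.3 ± 0.36 and 8.87 ± 0.746 CPM with DMSO (edgeR adjusted p = 0.77 and 0.508). Beside other listed genes, Nhlrc2 next to Adrb1 and Sec22a next to Adcy5 rose 1.26-fold and 1.14-fold (edgeR adjusted p = 7.95e-04 and 0.0401). Dpysl2 next to Adra1a and Depdc1b next to Pde4d fell 1.68-fold and 3.44-fold (edgeR adjusted p = 1.81e-08 and 4.93e-05). Hacd2 next to Adcy5 and Aebp2 next to Pde3a did not pass. Whether a gene follows its neighbours was not tested. In the same libraries 4 of 7 fibroblast markers fell, while 25.5% of all tested genes were called lower. Among these markers Thy1 fell 5.54-fold and Col3a1 2.42-fold, Dcn and Pdgfra rose 1.4-fold and 1.22-fold, and Postn did not pass. The part of the fibroblast markers in the Akap5 values was not tested.

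Of 9 other anchoring protein genes 3 were higher and 3 lower, 66.7% called against 49.8% of all genes, with a median of −0.07. The number of lower genes was 2 without 915 library 3 or DMSO library 3, and 4 without DMSO library 2. Akap12, a scaffold for protein kinases A and C, fell 2.29-fold (70.8 ± 3.02 CPM with 915, 168 ± 7.46 CPM with DMSO, edgeR adjusted p = 3.48e-10). Akap1, which anchors the kinase at the outer mitochondrial membrane, rose 1.78-fold (217 ± 0.868 and 126 ± 4.72 CPM, edgeR adjusted p = 4.36e-09). Akap13, a large anchoring protein gene of heart muscle, rose 1.16-fold, to 393 ± 30 CPM with 915 against 351 ± 16.6 CPM with DMSO (edgeR adjusted p = 7.01e-03).

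**Figure D3:**
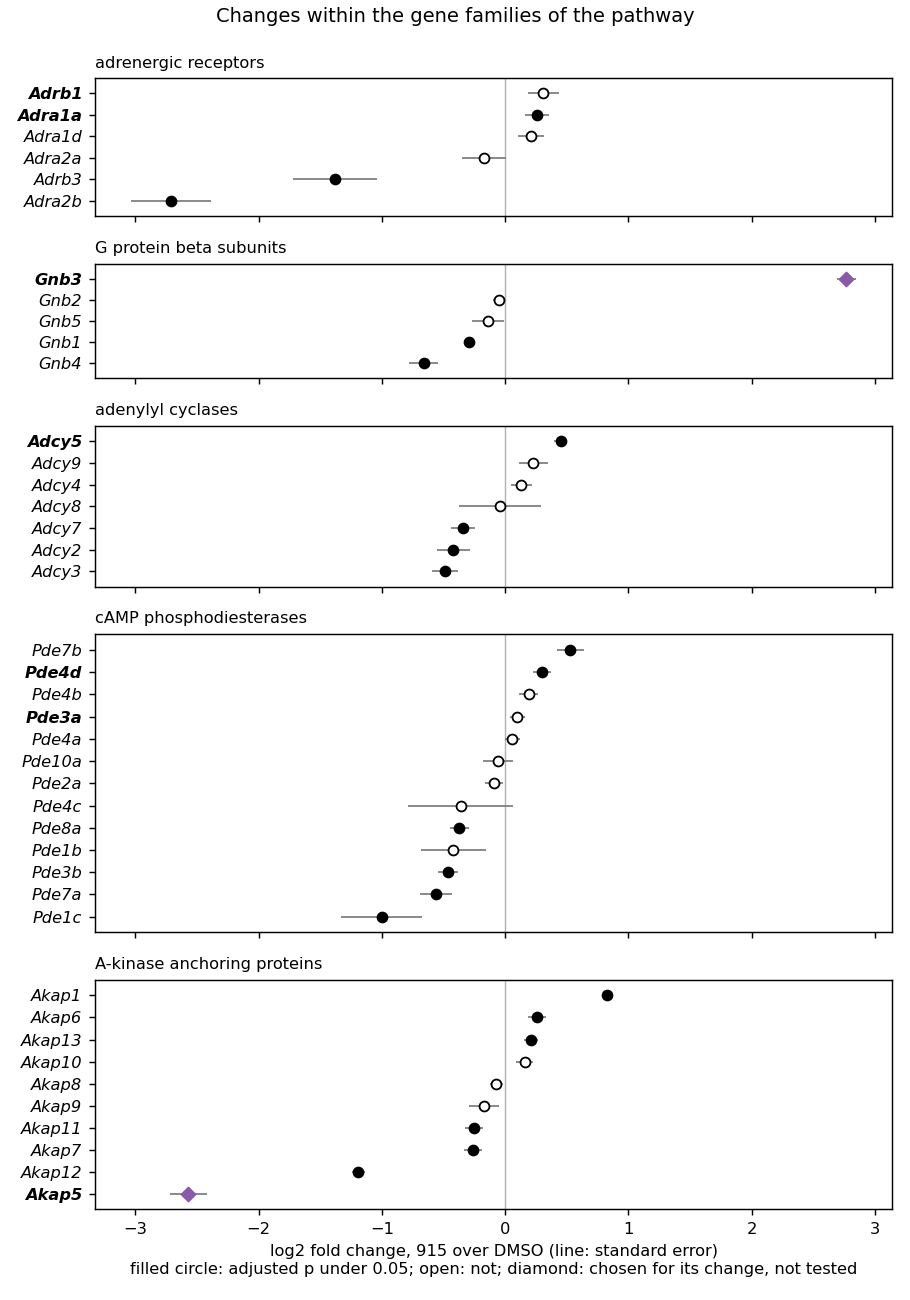
Log2 fold change, 915 over DMSO (points, with standard error lines), of tested genes in 5 families; listed genes in bold, filled circles with an adjusted p under 0.05, diamonds for Gnb3 and Akap5, which were chosen for their change. Gnb3 at 2.77 and Akap5 at −2.57 stand far from 0, as does Adra2b at −2.71, and Adcy5 at 0.45 is the highest of the cyclases. The lines drawn at Gnb3 and Akap5 carry no test.

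Downstream of cyclic AMP, among 9 genes of protein kinase A subunits and inhibitors 5 were called higher and 1 lower (median log2 fold change 0.13). These are 66.7% called, against 49.8% of all genes. The regulatory subunit genes Prkar1a and Prkar2a rose 1.17-fold and 1.24-fold (440 ± 7.31 and 51.9 ± 2.12 CPM with 915, 388 ± 6.92 and 43.3 ± 2.4 CPM with DMSO, edgeR adjusted p = 5.31e-04 and 8.14e-04). Prkar2b, another regulatory subunit gene, fell 1.69-fold (19.9 ± 1.21 and 34.7 ± 3.67 CPM, edgeR adjusted p = 3.23e-06). The other higher genes, named after their values were seen, were the catalytic subunit genes Prkaca and Prkacb and the inhibitor gene Pkia. They rose 1.15-fold, 1.13-fold and 1.09-fold (edgeR adjusted p = 6.96e-03, 0.0473 and 0.0365). The number of higher genes was 3 without 915 library 1 or 2, without DMSO library 1 or 2 and with library totals in place of TMM scaling, and without 915 library 1 the number of lower genes was 2. None of 3 genes of other cyclic AMP effectors passed.

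The next 10 genes encode proteins that protein kinase A phosphorylates or that act with it, mostly in contraction or ion transport. Of these 8 rose and 0 fell, 80% called against 49.8% of all genes. The median log2 fold change was 0.56, against −0.01 over all genes. Tnni3, cardiac troponin I, rose 2.10-fold (1981 ± 16.8 CPM with 915, 976 ± 86.6 CPM with DMSO, edgeR adjusted p = 4.17e-09). Rrad, whose product restrains the calcium channel until the kinase phosphorylates it, rose 2.06-fold (199 ± 9.66 and 99.8 ± 4.37 CPM, edgeR adjusted p = 1.85e-09). Pln, phospholamban, the brake on the calcium pump of the sarcoplasmic reticulum, rose 1.56-fold (1862 ± 137 and 1236 ± 51.5 CPM, edgeR adjusted p = 4.68e-07). The calcium channel gene Cacna1c did not pass (130 ± 6.7 and 135 ± 5.58 CPM, edgeR adjusted p = 0.883). Several of these genes are themselves abundant in myocytes. In the same libraries 6 of 6 tested cardiomyocyte markers were higher, with a median log2 fold change of 0.47. Pln and Ryr2 stand on both lists. The part of the markers in these values was not tested.

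**Figure D4:**
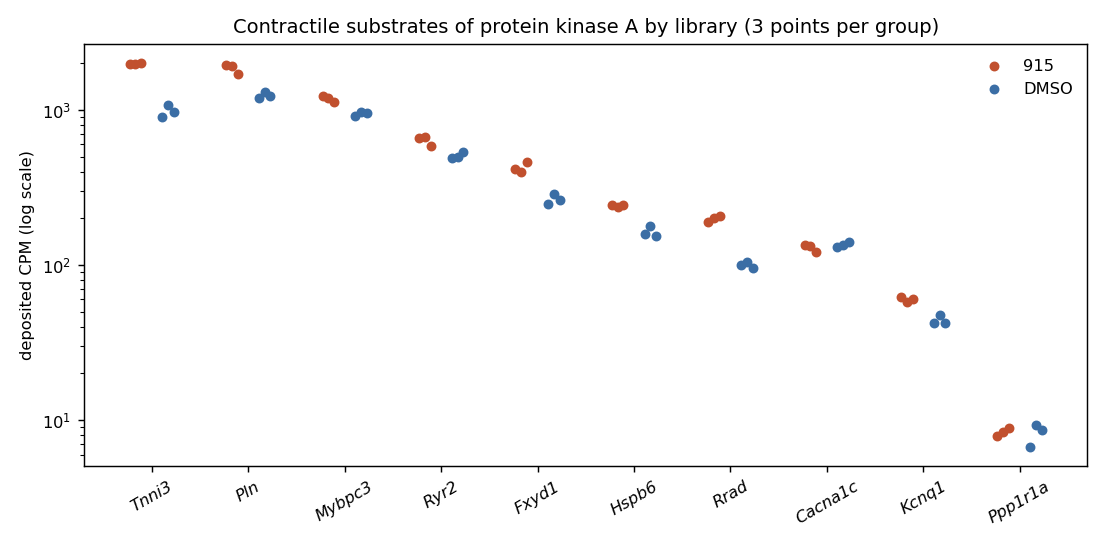
Deposited CPM (log scale) in each library of 10 genes whose products protein kinase A phosphorylates or act with it, mostly in contraction or ion transport. For each gene 915 is left and DMSO right. In 8 genes the 915 points lie above the DMSO points, while Cacna1c and Ppp1r1a overlap.

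Genes of the CREB transcription factors and their targets were mixed. Of 10 tested 2 rose and 2 fell, 40% called against 49.8% of all genes (median 0.07). The nuclear receptor genes Nr4a1 and Nr4a3, which cyclic AMP induces in many cells, rose 1.94-fold and 1.42-fold (40.6 ± 1.13 and 13.0 ± 0.208 CPM with 915, 21.6 ± 0.0137 and 9.49 ± 0.446 CPM with DMSO, edgeR adjusted p = 1.38e-08 and 3.22e-04). Crtc3, a CREB coactivator gene, fell 1.41-fold (11 ± 0.597 and 16.1 ± 0.774 CPM, edgeR adjusted p = 2.72e-04). The target genes Crem, Sik1, Per1, Fos and Nr4a2, named after their values were seen, did not pass, with log2 fold changes of 0.03 to 0.10 and edgeR adjusted p-values of 0.368 to 0.844.

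Of 9 genes that desensitise receptors or limit G protein signals, 0 rose and 4 fell (median −0.16). This share of 44.4% lies below the 49.8% called over all genes. The G protein regulators Rgs3 and Rgs2 fell 1.43-fold and 1.21-fold, to 32.3 ± 1.95 and 22.7 ± 0.915 CPM with 915 against 47.8 ± 1.91 and 28.4 ± 1.83 CPM with DMSO (edgeR adjusted p = 1.16e-05 and 5.51e-03). The receptor kinase gene Grk5 fell 1.27-fold (44.7 ± 1.72 and 58.6 ± 2.81 CPM, edgeR adjusted p = 2.33e-04), while Grk2, the main beta receptor kinase of the heart, was at 50.6 ± 1.14 and 50 ± 2.6 CPM and did not pass (edgeR adjusted p = 0.379). Of 7 genes downstream of alpha-1 receptors, 4 were lower and 1 higher, 71.4% called against 49.8% of all genes. Their median was −0.22. The phospholipase genes Plcb3 and Plcb4 fell 1.20-fold and 1.25-fold, and Prkce, protein kinase C epsilon, rose 1.32-fold (21.8 ± 1.08 CPM with 915, 17.1 ± 0.483 CPM with DMSO, edgeR adjusted p = 4.24e-04).

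Genes that make, take up or break down catecholamines were called higher in 2 of 7 cases and lower in 0, with 1 lower without 915 library 2. The share called was 28.6%, against 49.8% of all genes. Maoa, monoamine oxidase A, which degrades noradrenaline at the mitochondrial surface, rose 1.98-fold (244 ± 6.99 CPM with 915, 128 ± 4.95 CPM with DMSO, edgeR adjusted p = 9.17e-10). Dbh, which makes noradrenaline from dopamine, rose 1.51-fold at a low level (4.92 ± 0.75 and 3.38 ± 0.405 CPM, edgeR adjusted p = 6.52e-03). Th, which starts catecholamine synthesis, was too low to be tested, at 0.149 ± 0.0827 and 0.239 ± 0.212 CPM. Over all 12 role lists, 23 of 100 tested genes were higher and 30 lower, 53% in all, against 49.8% of all genes.

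**Figure D5:**
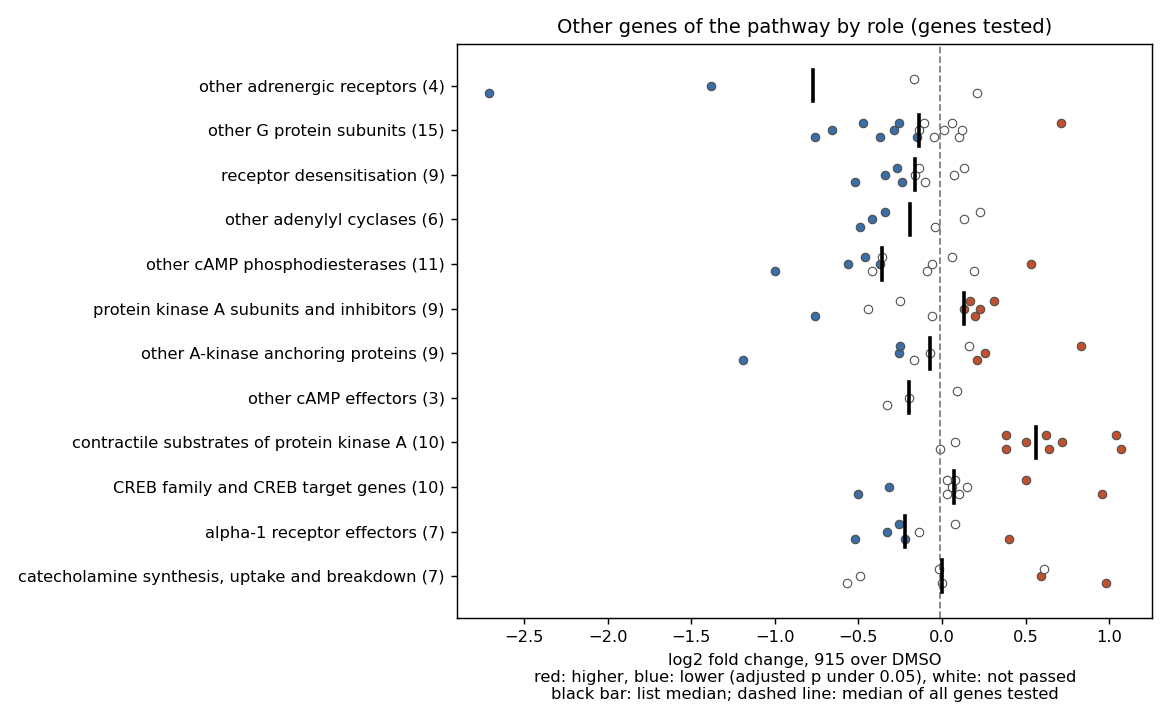
Log2 fold change, 915 over DMSO, of the other tested genes of the pathway by role, with the number of genes in brackets; red points higher, blue lower, white not passed, black bars the list median and the dashed line the median of all genes. The contractile substrates sit to the right with a median of 0.56. The 4 other adrenergic receptors have a median of −0.77 and range from −2.71 to 0.21.

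The gene whose log2 CPM followed each member most closely over the 6 libraries was taken from 9706 genes. For Gnb3 this was Hadhb, a fatty acid oxidation gene (Pearson r = 0.9997), for Akap5 Arhgap29 (0.9991), for Adcy5 Mycbpap (0.9986), for Pde4d Cisd2 (0.9983), for Pde3a Phc3 (0.9929), for Adrb1 Pde4b (0.9862) and for Adra1a Wipf3 (0.9839). These values describe 6 libraries in 2 groups, and a large difference between the groups by itself gives a high r. In both Adrb1 and Pde4b, whose groups overlap, DMSO library 1 was the lowest and 915 library 3 the highest.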

How the data were processed

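STAR 2.5.1a, featureCounts 1.4.6-p5 from Subread and the rat build Rnor_6.0 are named in the submitters' processing notes. No source used here gives the strand setting or says how reads with several matches were handled. The authors deposited a table of read counts and a CPM table scaled from them, and the counts given here sum to 93.1% to 93.7% of the totals behind that scaling. Of its 22641 rows, 993 repeated an Ensembl identifier with the same counts and were dropped. No library was a copy of another: within groups, chi-square over its degrees of freedom was 5.45 to 11.6.

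Counts were filtered with filterByExpr, scaled by TMM and fitted on group alone with edgeR 4.0.16 in R 4.3.3 (two-sided quasi-likelihood test, Benjamini-Hochberg adjustment over 14253 genes). The standard error is the log2 fold change divided by the square root of F. The biological coefficient of variation was 6.84%. The log2 ratio of Pde3a to Pde4d used a pseudocount of 0.5 counts and the exact permutation test. The procedure was tested on simulated counts in which far fewer genes changed than were called here. Its scaling with this many changed genes was therefore not tested. Floors cover counting error only, since reads carry no molecular identifiers. Levels are compared between groups and not between genes, because no transcript lengths were used.

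The listed genes, the 12 role lists and the marker lists were chosen with earlier results of these data known. Of 115 role list entries, 105 matched the table and 100 were tested, and 1 further gene is not reported here. Named genes are the listed genes, up to 3 genes per role list with the smallest p among those with adjusted p under 0.05 and a mean of at least 1 CPM, and the 1 gene most alike each listed gene in log2(CPM + 0.5), with a mean of at least 5 CPM. Genes outside this rule, such as Cacna1c, Grk2, Gnas, Pde4b, Gng5, Adra1d and Th, were named after their values were seen, to complete a family or otherwise. So were genes next to a listed gene and single marker genes. Ratios of Adra1a to Adra1b and of Adcy5 to Adcy6 were not analysed here. Alternatives were median-ratio size factors, no scaling beyond library totals, no low-count filter, DESeq2 1.42.0, the replicate number as a block and leaving out each library.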

Additional observations from a re-analysis of the deposited data

How the results depend on the processing

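Under 11 alternatives the number of genes called over the table ranged from 6071 to 7174 (7096 as reported), that of the 5 tested members from 2 to 4 (3 as reported) and that of the role list genes from 45 to 54 (53 as reported). Adcy5 and Pde4d passed in all of them, with log2 fold changes of 0.40 to 0.50 and 0.25 to 0.34, and Pde3a in none (0.03 to 0.14). Gnb3 stayed between 2.72 and 2.86 and Akap5 between −2.72 and −2.47. Adra1a lost its call in 6 alternatives (edgeR or DESeq2 adjusted p from 0.00929 to 0.15 over all of them), and Adrb1 gained one in 6 (0.0206 to 0.234). Of 29 named role list genes, 27 kept their call throughout, Adcy2 and Adcy7 lost it in 2 alternatives each, and 0 reversed. Numbers of lower genes also moved, with 6 to 7 for other G protein subunits and 3 to 4 for receptor desensitisation. They were 3 to 4 for other phosphodiesterases, 2 to 4 for other anchoring proteins and 3 to 5 for alpha-1 effectors. Library totals without TMM moved the median of all genes by −0.057 and gave 2808 higher and 4285 lower genes, against 3460 and 3636.

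Same-numbered libraries of the groups did not deviate together (correlations of −0.0338, −0.111 and −0.0896 for numbers 1 to 3), so the numbers were taken as names. With the replicate block 6193 genes, 48 role list genes and 2 of the 5 members were called, Adra1a being lost (adjusted p = 0.0732). The replicate block also left 0 higher G protein subunit genes, Gng5 being lost, and 3 higher protein kinase A genes. The difference in the log2 ratio of Pde3a to Pde4d was −0.21 with the replicate block, with an exact sign-flip p of 0.25, the smallest 3 pairs allow, and −0.29 to −0.17 with 1 library left out.

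Depth limits the precision of genes with few counts, such as Adra2b (7 to 67 per library), Adrb3 (12 to 55) and Th (0 to 16).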

Other observations

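The symbol Gnas stands on 2 rows of the table under different Ensembl identifiers. The row used above (ENSRNOG00000047374), taken because it held more counts, had 251 ± 11.5 CPM with 915 and 238 ± 4.82 CPM with DMSO. The other (ENSRNOG00000025889) had 1.99, 2.45 and 3.32 CPM in 915 libraries 1 to 3 and 10.1, 11.3 and 8.12 CPM in DMSO libraries 1 to 3, a 3.66-fold decrease (SD over n = 3 each; edgeR adjusted p = 9.67e-07). How reads of this complex locus were divided between the rows is unknown here, and both values are therefore uncertain.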
